A study of Mus musculus with 8 samples.

Results

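Shore tiles are the stretches of the mouse genome that lie just beside blocks of dense CpG coverage. They were taken here as autosomal tiles of 1000 bp, counted from position 1 of each chromosome, that held 3 to 30 covered cytosine positions and lay 1 or 2 tiles from a tile with 60 or more covered positions, here called a dense tile. A tile also needed at least 20 reads in every library. Of 44516 tiles with at least 3 covered positions that met the same read minimum, 2067 were shore tiles. They were 19.6% of the 10546 tiles that met the rule on position and coverage before the read minimum. The reads of a tile were summed over its cytosines, so 1 read counted at each cytosine it covered. The level of a tile was the share of these reads that called a cytosine methylated, in percent. No shore tile was chosen on its level. Coverage stands in for CpG density in the rule, and annotated CpG islands were not used here.

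The series asks what AG120 and azacitidine together do to DNA methylation in leukaemic cells. Reduced representation bisulfite sequencing (RRBS) reads CpG-rich restriction fragments after bisulfite has converted unmethylated cytosines. All 8 libraries came from I1DN leukaemic progenitors, a name kept as the labels give it, which were cKit+ and Cd11b- and were taken from transplanted mice. For 5 days the mice were given Vehicle, AG120, AZA or both drugs, here called the combination. AG120 is ivosidenib, which blocks the mutant IDH1 enzyme, and AZA is azacitidine, a nucleoside that traps DNA methyltransferases. Each of the 4 groups had 2 libraries. The labels do not say whether libraries came from separate or pooled mice, so p-values measure the spread between these libraries, which may be technical. Untreated normal progenitors were not analysed here, and all groups carried the I1DN genotype.

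In mammalian genomes most CpG cytosines are methylated, while CpG islands at gene promoters stay largely unmethylated. Shores are the flanks where one state passes into the other, and they are known as places where methylation differs between tissues and between normal and cancer cells. DNA methyltransferases write the mark, TET enzymes oxidise it, and mutant IDH1 makes an oncometabolite, which inhibits TET enzymes.

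Sequences upstream of gene starts show what such a tile looks like at the level of single bases. The 250 bases before the start of a gene lay wholly inside a shore tile for 168 RefSeq windows in 152 tiles. The 4 windows printed here (RefSeq, GRCm38.p6, the coordinates of mm10) were shown because every library read them and because they span the range from unmethylated to mixed. They run 5′ to 3′ on the strand of the gene, and capitals mark the CpGs that at least 1 library read.
Ptpn9, chr9:56994718-56994967, plus strand: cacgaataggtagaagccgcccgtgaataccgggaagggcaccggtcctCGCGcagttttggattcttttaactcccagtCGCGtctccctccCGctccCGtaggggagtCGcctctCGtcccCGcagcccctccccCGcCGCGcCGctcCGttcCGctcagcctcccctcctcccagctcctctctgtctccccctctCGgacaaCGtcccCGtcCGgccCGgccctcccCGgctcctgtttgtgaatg
Bahcc1, chr11:120232697-120232946, plus strand: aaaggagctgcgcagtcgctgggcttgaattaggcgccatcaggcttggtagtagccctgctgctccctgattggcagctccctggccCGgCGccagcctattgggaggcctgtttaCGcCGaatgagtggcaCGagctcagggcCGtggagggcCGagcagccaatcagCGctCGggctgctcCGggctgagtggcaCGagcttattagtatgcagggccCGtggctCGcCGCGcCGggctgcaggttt
Atxn7l3b, chr10:112929027-112929276, minus strand: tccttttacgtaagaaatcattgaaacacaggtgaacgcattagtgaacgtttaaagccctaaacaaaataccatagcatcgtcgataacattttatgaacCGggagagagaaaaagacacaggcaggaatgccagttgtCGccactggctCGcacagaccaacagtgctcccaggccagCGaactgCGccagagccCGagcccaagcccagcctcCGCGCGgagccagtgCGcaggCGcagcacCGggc
Sec22c, chr9:121705030-121705279, minus strand: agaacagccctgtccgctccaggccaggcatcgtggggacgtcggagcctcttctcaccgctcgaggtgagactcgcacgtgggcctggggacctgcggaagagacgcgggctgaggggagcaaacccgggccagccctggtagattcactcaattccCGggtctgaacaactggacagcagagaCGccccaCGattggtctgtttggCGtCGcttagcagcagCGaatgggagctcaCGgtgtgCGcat
Ptpn9 encodes a tyrosine phosphatase. Its window held 26 CpGs, of which 21 were read, and 6 of the 8 libraries had no methylated read there, while the Vehicle libraries had 0.680% and 15.5%. Bahcc1 encodes a chromatin protein with a BAH domain. In its window 16 of 19 CpGs were read, and the level was 4.10% and 1.45% in Vehicle, 16.2% and 0% with AG120, 3.48% and 0% with AZA and 3.92% and 0% with the combination. Atxn7l3b stood beside a dense tile that was itself partly methylated (mean 38.9%). Its window read 31.7% and 33.3% in Vehicle, 46.2% and 100% with AG120, 10.4% and 38.9% with AZA and 40% and 18.2% with the combination. Sec22c, a gene of vesicle transport, shows how far a window and its tile can part. The window stayed between 0% and 4.11% in all 8 libraries, but the tile around it was at 74.4% in AG120 replicate 2 and 70% in combination replicate 2, and between 0% and 11.1% in the other 6.

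Shore windows were poorer in CpG than those inside dense tiles. The median number of CpGs in 250 bases was 10 in the 168 shore windows, 22 in 5710 dense windows and 6 in all 31396 upstream windows. The letters CCGG, the site of MspI and the same on both strands, occurred in 61.3% of shore windows, 91.6% of dense windows and 47.8% of all windows. Median GC content was 57.6% in shore and 66.4% in dense windows. Among the shore windows, 129 lay in tiles with a mean level under 20% (median 11 CpGs), 34 in tiles at 20 to 80% (median 8) and 5 in tiles over 80% (median 6). As a check of the coordinates, 99.3% of 448337 covered positions inside RefSeq promoter windows fell on a CG.

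The 2067 tiles lay on all 19 autosomes and flanked 1958 distinct dense tiles. Of them, 1644 were the first tile beside a dense tile, 423 were the second, and 29 lay between dense tiles on both sides. The dense tile stood at the higher coordinate for 1015 and at the lower for 1023. The centre of 1556 tiles lay within 2000 bp of a gene end, 431 others lay inside a gene and 80 between genes, and the tiles near a gene end named 2038 genes. A shore tile held a median of 17 covered positions, and a library read a median of 7 to 10 of them. Libraries held 90373925 to 130796962 CpG calls in all, and shore tiles took 1.45% to 1.66% of them. The median number of reads in a shore tile was 696 and 807 in Vehicle, 546 and 555 with AG120, 755 and 774 with AZA and 492 and 479 with the combination, so the libraries with AG120 were the shallower ones.

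Read depth says less about precision here than it seems to. In shore tiles with a mean level of 20 to 80%, 67.6% to 79.9% of the single positions with at least 20 reads in a library had either no methylated read or only methylated reads, and just 7.33% to 15.3% were themselves between 20 and 80%. A tile inside Hapln4 (chr8:70087001-70088000), a gene for a link protein of the extracellular matrix, gives an example. In Vehicle replicate 2 the cytosine at 70087052 had 42 of 42 reads methylated, the cytosine at 70087043 had 0 of 42 and that at 70087058 had 42 of 42. In AZA replicate 1 the same cytosines, in the same order of naming, had 0 of 197, 0 of 197 and 197 of 197. The files carry no molecular identifiers, so reads copied from 1 molecule and reads from many cannot be told apart. The tiles at 20 to 80% differed between the replicates of a group by a root mean square of 29.7 points in Vehicle, 35.6 with AG120, 35.9 with AZA and 38.4 with the combination. Counting error, with every read at every cytosine taken as independent, would give 3.86, 4.39, 3.6 and 4.33 points. Reads that cover several cytosines are not independent in this sense. Differences were therefore judged over libraries. The limits given below for a count of 0 cover counting error only, under the same assumption of independence, and are too narrow where reads cover several cytosines.

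Shore tiles had a mean level of 29.8% and 30.2% in the Vehicle libraries, 29.4% and 32.0% with AG120, 30.2% and 28.1% with AZA and 30.8% and 30.02% with the combination. The values of all 4 groups overlapped with those of at least 1 other. Dense tiles (n = 11828) lay far lower, at 9.03% to 10.8%, and tiles of the same 3 to 30 positions with no dense tile within 2 tiles (n = 22132) far higher, at 71.9% to 75.9%. Shore tiles exceeded dense tiles by 19.96 ± 0.674 points (SD over 8 libraries, range 19.1 to 21.2), in 8 of 8 libraries (exact sign-flip permutation test, two-sided p = 0.00781, the smallest possible). They were lower than the other sparse tiles by a difference of -43.8 ± 0.603 points (range -45.1 to -43.0), again in 8 of 8 libraries with exact p = 0.00781.

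The rise was steep and near. The first tile beside a dense tile averaged 23.1% and the second 57.0%, and the difference was 33.8 ± 1.22 points (SD over 8 libraries, range 31.9 to 36.3, exact sign-flip permutation p = 0.00781). Further out the climb was slow. Sparse tiles lay at 63.9% at 3 tiles, 68.1% at 5, 70.3% at 10 and 74.8% beyond 10. The step held within tiles of like coverage. With 3 to 10 positions the first and second tiles averaged 33.1% and 64.6%, with 11 to 20 positions 24.2% and 54.5%, and with 21 to 30 positions 17.6% and 47.5%. Single positions told the same within a tile. In the 200 bp next to the dense tile their mean level was 11%, in the following bins of 200 bp it was 24.4%, 33.5%, 42.7% and 46.9%, and in the bins of the second tile it lay between 46.7% and 61.1%. The first 200 bp held 18009 of the 35486 positions, so the most densely covered part of a shore tile was its least methylated part.

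**Figure D1:**
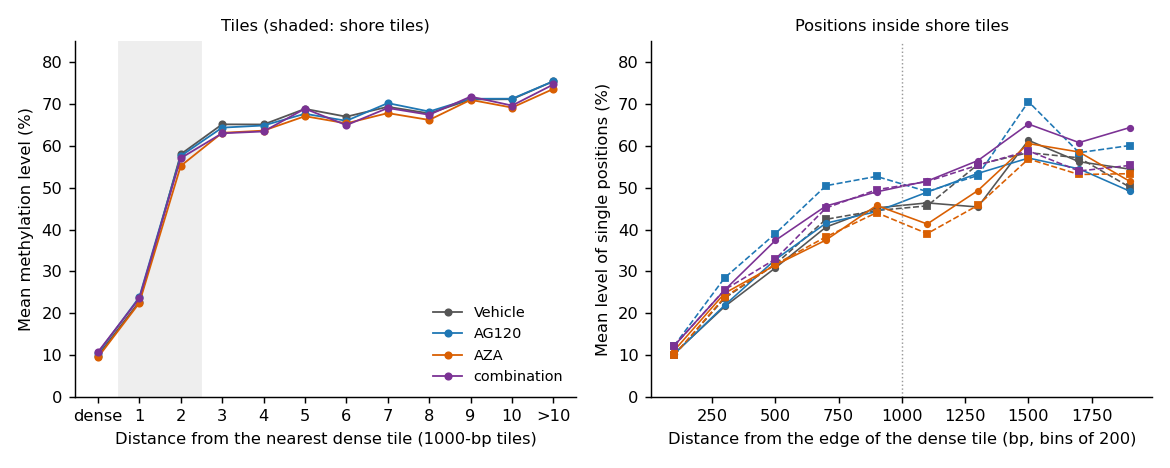
Methylation level against distance from a dense tile. Left, mean level of tiles (percent) by distance in tiles of 1000 bp, with 1 line per group (mean of 2 libraries) and the shore tiles shaded; right, mean level of single positions in bins of 200 bp from the edge of the dense tile, with 1 line per library (solid with circles, replicate 1; dashed with squares, replicate 2). All libraries climb from about the level of the dense tiles to that of the second tile, 57.0% on average.

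Few shore tiles sat at their average. By the mean over 8 libraries, 1191 tiles (57.6%) were under 20%, 529 (25.6%) at 20 to 80% and 347 (16.8%) over 80%, and the median tile was at 11.5%. First tiles were mostly low, with 65.3% under 20% and 10.2% over 80%. Second tiles were split, with 27.7% under 20%, 30.02% between and 42.3% over 80%. In single libraries 20.03% to 23.7% of the shore tiles were between 20 and 80%. A tile's level ranged over a median of 25 points across the 8 libraries. That range was 13.8 points in tiles under 20%, 66.7 in tiles at 20 to 80% and 25.3 in tiles over 80%, and 179 tiles (8.66%) ranged over more than 80 points.

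**Figure D2:**
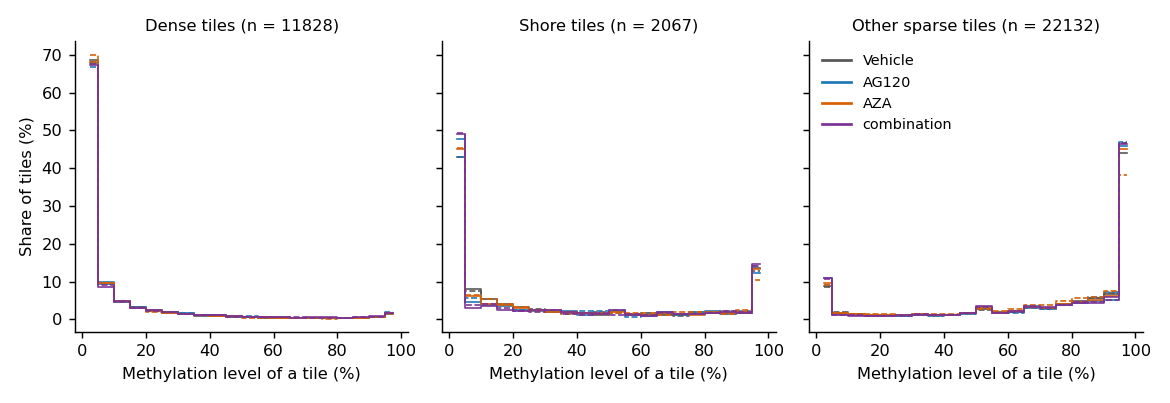
Distribution of tile levels. The x axis is the level of a tile in percent (bins of 5), the y axis the share of tiles in percent, with 1 line per library (solid, replicate 1; dashed, replicate 2). Dense tiles pile up near 0 and other sparse tiles near 100, while shore tiles show a large pile near 0 and a smaller one near 100.

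The levels differed with gene position in tiles of the same distance. First tiles averaged 21.5% near a gene end (n = 1327), 29.9% inside a gene (n = 271) and 30.9% between genes (n = 46). Second tiles averaged 52.0% (n = 229), 63.3% (n = 160) and 60.5% (n = 34). Around RefSeq gene starts, shore tiles within 3000 bp downstream averaged 27.9% (n = 793) and those upstream 25.9% (n = 658). The difference was 2.01 ± 0.844 points (SD over 8 libraries, 8 of 8 higher, exact sign-flip permutation p = 0.00781; a comparison chosen after the levels had been seen). The sides were not alike in distance: 327 downstream tiles lay at 1000 to 2000 bp and 121 at 2000 to 3000 bp, against 189 and 48 upstream. The pooled difference did not hold its direction at like distance. Within 500 bp the downstream tiles were higher (18.1% against 11.9%), and in the farther bins they were lower, with 14.1% against 18.1% at 500 to 1000 bp, 34.1% against 40.04% at 1000 to 2000 bp and 48.3% against 53.4% at 2000 to 3000 bp.

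A shore followed its dense tile only loosely. The flanked dense tile had 20 reads in every library for 1949 shore tiles. Where it was under 5%, the shore averaged 23.8% (n = 1278), and 175 of those shores were over 80%. The shore averaged 30.9% where the dense tile was at 5 to 20% (n = 412), 46.4% at 20 to 80% (n = 212) and 90.02% where it was over 80% (n = 47). In the last set 40 shores were over 80% and 0 were under 20%. Across the 1949 tiles Spearman's rho was 0.367. It is given as a description, since the tiles share libraries. Of them 69.7% lay above their dense tile, by a median of 3.81 points. The sides of 1 dense tile could be compared for 43 dense tiles with a first-tile shore on each. Their levels had a rho of 0.0933 and differed by a median of 15.3 points. Both sides were under 20% in 41.9%, and for 3 dense tiles 1 side was under 20% and the other over 80%.

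The sharpest contrasts were highly methylated shores within 2 tiles of unmethylated dense tiles. Taking shores at 90% or more and dense tiles at 5% or less in all 8 libraries, limits set after the levels had been seen, gave 15 tiles, of which 12 were second tiles. With a minimum of 50 reads there were 7, and with tiles that started 500 bp later there were 19. The tiles named next were second tiles, so another tile lay between each and its dense tile, and they held few covered positions. The tile near Prkar1b, a regulatory subunit gene of protein kinase A, and inside Dnaaf5 (chr5:139152001-139153000) read 99.8% to 100% while its dense tile read 0% to 1.87%. It held 10 covered positions. The tile at Cnnm4 (chr1:36473001-36474000), a gene for a magnesium transporter, read 100% in all 8 libraries, 2 tiles from a dense tile at 0% to 3.08%. It held 3 covered positions. The tile at Ermp1 (chr19:29646001-29647000) read 90.9% to 100% with 6 covered positions, and a tile in Ufd1 (chr16:18814001-18815000) 99.3% to 100% with 4. The opposite contrast, a shore at 20% or less within 2 tiles of a dense tile at 50% or more, occurred in 0 tiles. Shore and dense tile were both at 5% or less in all 8 libraries for 172 tiles.

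Shores that stayed within the same band of levels in every library, by limits also set after seeing the data, numbered 296 (14.3%) at 5% or less and 60 (2.90%) at 90% or more. Only 32 (1.55%) stayed between 20 and 80% in all 8, a wide band within which libraries could still differ much. The tile inside Hapln4 described above was one of them, at 28.4% to 41.7%, although its single positions differed from library to library. Others were the tiles near Azin2 (24.3% to 73.4%), Acp7 (30.5% to 70.4%) and inside Nrxn2 (23.8% to 52.2%), a gene for a synaptic adhesion protein.

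Neither drug moved the mean level of shore tiles beyond the spread between libraries. The 4 libraries with AG120 averaged 30.6 ± 1.13% and the 4 without 29.6 ± 0.992% (SD, n = 4). The difference was 1.01 points, with a 95% interval of -0.777 to 3.93 (exact permutation test over 70 assignments, two-sided p = 0.286, adjusted p = 0.629 over 10 tests). With AZA the mean was 29.8 ± 1.17% and without it 30.3 ± 1.17%, a difference of -0.565 points (-3.93 to 1.39, exact permutation p = 0.543, adjusted p = 0.776). The smallest p this design allows is 0.0286 for 4 libraries against 4, and 2 against 2 cannot reach 0.05. Adjusted over 10 tests, a p of 0.0286 cannot pass unless several tests reach it together. The AG120 difference in shores exceeded that in dense tiles by 0.0955 points (exact permutation p = 0.857) and that in other sparse tiles by 0.521 (exact permutation p = 0.314). For AZA these were -0.466 (exact permutation p = 0.4) and 0.715 points, the last with an interval of -0.0839 to 2.10 (exact permutation p = 0.0571, adjusted p = 0.429). The share of shore tiles at 20 to 80% differed by 0.0847 points with AG120 (exact permutation p = 0.971) and by -0.351 with AZA (exact permutation p = 0.743).

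Counting each read in place of each tile changed the picture for AG120. The share of methylated reads over all shore tiles was 20.4% and 20.4% in Vehicle, 25.0% and 30.04% with AG120, 22.6% and 21.8% with AZA and 30.1% and 27.1% with the combination. All 4 libraries with AG120 lay above all 4 without it, by 6.73 points on average (exact permutation p = 0.0286, the smallest possible, not adjusted). Dense tiles and other sparse tiles separated in the same way, by 3.68 and 4.50 points (exact permutation p = 0.0286 for each, not adjusted). On this scale, a comparison added after seeing the data, the shore difference exceeded the dense one by 3.05 points (1.65 to 4.46) and the other sparse one by 2.22 (0.969 to 4.64, exact permutation p = 0.0286 for both, not adjusted). The 4 libraries with AG120 also had the fewest reads per shore tile, and the part of depth in this was not tested. The median over tiles went the other way, by -1.13 points for AG120 (exact permutation p = 0.514) and -2.17 for AZA (exact permutation p = 0.143), and was 9.12% and 9.47% in Vehicle, 7.07% and 11.7% with AG120, 8.44% and 8.29% with AZA and 5.81% and 6.18% with the combination.

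Tiles without any methylated read were more frequent with AG120 at the depth of the files. They made up 22.8% and 21.4% of the shore tiles in Vehicle, 32.8% and 30.2% with AG120, 26.7% and 26.2% with AZA and 36.5% and 36.3% with the combination. The 4 libraries with AG120 did not overlap with the others, and the difference was 9.70 points (3.499 to 15.1, exact permutation p = 0.0286, not adjusted). Since shallower libraries miss methylated reads more often, each tile was thinned to 20 reads. Thinning does not even out the number of cytosines read. Its median per shore tile was 8 and 8 with AG120, 7 and 8 with the combination, and 10 in each Vehicle and AZA library. At 20 reads the shares were 39.9% and 39.7% in Vehicle, 46.0% and 41.8% with AG120, 42.9% and 42.8% with AZA, and 47.5% and 47.4% with the combination. The AG120 difference was 4.37 points (-1.06 to 7.86, exact permutation p = 0.0857, adjusted p = 0.429) and the AZA difference 3.30 (exact permutation p = 0.171). Without AG120 replicate 2 the AG120 difference was 5.67 points (exact permutation p = 0.0286). Dense tiles differed by 3.43 points with AG120 at 20 reads and other sparse tiles by 1.42. The shore difference exceeded the dense one by 0.936 points, with exact permutation p = 0.143. At 1767 shore positions with at least 5 reads in all 8 libraries, 66.9% had no methylated read with AG120 and 62.2% without (difference 4.74, exact permutation p = 0.0286). At 5 reads per position the difference was 2.02 points (exact permutation p = 0.143).

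**Figure D3:**
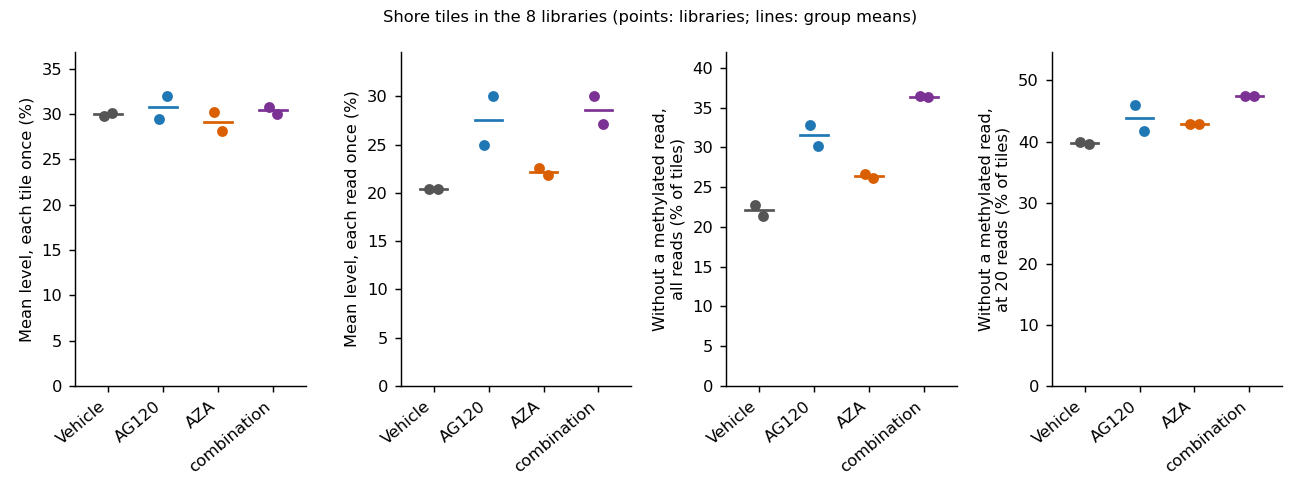
Shore tiles in the 8 libraries. Points are libraries and lines are group means; the y axes give, from left to right, the mean level with each tile counted once, the mean level with each read counted once, and the share of tiles without a methylated read over all reads and at 20 reads per tile (percent). The 4 libraries with AG120 lie above the other 4 in the inner panels and overlap with them in the outer ones.

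Classes of shore tiles were also tested, though the adjusted test had little power to call any. Shore tiles were split by distance, coverage, gene position, level and the level of the dense tile into classes, and each was tested for both drugs. Of these 26 tests 0 passed after adjustment. The smallest possible p, 0.0286 in the exact permutation test, cannot pass adjustment over 26 tests unless many tests reach it together. The class with the smallest p was that of 259 shores beside a dense tile at 20% or more, which averaged 55.6 ± 1.45% with AG120 and 53.0 ± 1.57% without, a difference of 2.63 points (0.0434 to 6.93, exact permutation p = 0.0286, adjusted p = 0.557). Shores at 20 to 80% averaged 48.4 ± 3.01% with AG120 and 44.0 ± 1.95% without (difference 4.45, exact permutation p = 0.0857). Shores over 80% averaged 91.1 ± 2.08% with AZA and 93.2 ± 0.911% without (difference -2.10, exact permutation p = 0.0571). For second tiles the AZA difference was -1.66 points (-5.36 to 0.944) and for first tiles -0.283 (-3.57 to 1.63).

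**Figure D4:**
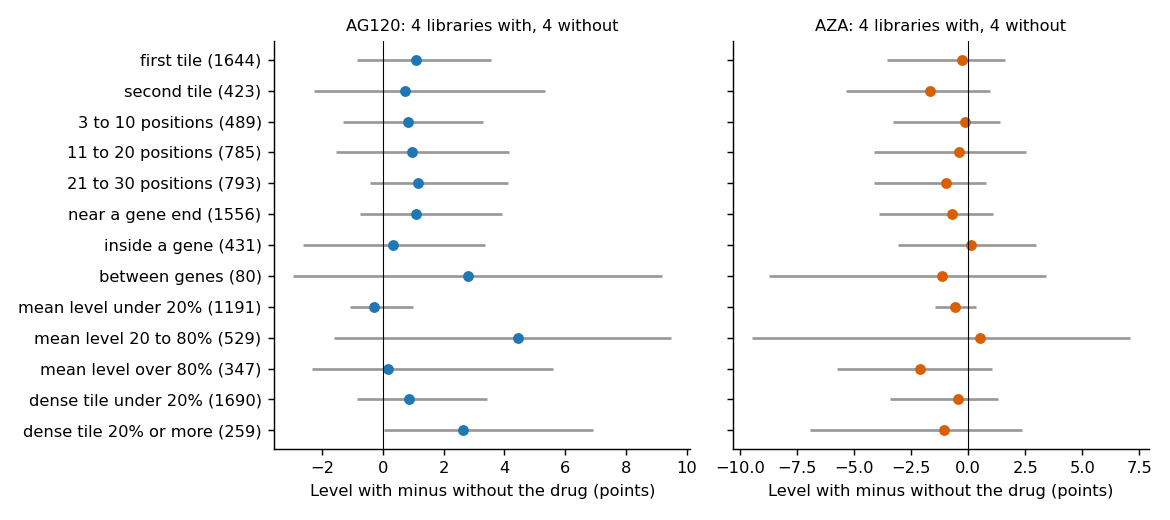
Difference in mean level between the 4 libraries with a drug and the 4 without (x axis, percentage points) for classes of shore tiles (y axis, number of tiles in brackets). Points are differences and lines 95% intervals from the exact permutations; the interval lies wholly above 0 for AG120 in shores beside dense tiles at 20% or more, 0.0434 to 6.93, and includes 0 in the other classes.

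Tested tile by tile, 0 of 2024 fitted shore tiles passed an adjusted p of 0.05 in any of 7 comparisons with edgeR's quasi-likelihood test (background over all 44190 tiles: 0% in each). The other 43 shore tiles had reads of only 1 state and could not be fitted. An unadjusted p under 0.05 was reached by 51 shore tiles for AG120 against Vehicle (2.52%, background 2.84%), 40 for AZA (1.98%, background 2.46%) and 66 for the combination (3.26%, background 3.95%). It was reached by 70 for the combination against AZA (background 3.86%), 46 for the combination against AG120 (background 3.4%), 50 for the average of AG120 (background 3.4%) and 38 for the average of AZA (background 2.65%). The 3 comparisons with Vehicle share its libraries. Limma called 0 shore tiles in each comparison. At the same adjusted threshold the likelihood ratio test of edgeR called 1 shore tile for AG120 against Vehicle (0.0494%, background 0.0181%), 1 for AZA (0.0494%, background 0.0181%) and 6 for the combination (0.296%, background 0.217%). It called 18 for the combination against AZA (0.889%, background 0.726%), 19 for the combination against AG120 (0.939%, background 0.665%), 18 for the average of AG120 (0.889%, background 0.928%) and 6 for the average of AZA (0.296%, background 0.493%). DESeq2 called 4 for AG120 against Vehicle (0.198%, background 0.217%), 7 for AZA (0.346%, background 0.233%) and 20 for the combination (0.988%, background 0.738%). For the other comparisons, in the same order, it called 33 (1.63%, background 1.29%), 34 (1.68%, background 1.33%), 24 (1.19%, background 1.49%) and 15 (0.741%, background 0.903%). The shares under these tests were small and lay on both sides of those over all tiles.

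Groups that did not overlap were about as frequent among shores as over all tiles, or less so. With AG120, both libraries lay above both Vehicle libraries in 231 shore tiles (11.4%, background 13.2%) and below them in 324 (16.0%, background 17.3%). With AZA these were 245 (12.1%, background 12.3%) and 355 (17.5%, background 18.6%), and with the combination 213 (10.5%, background 12.8%) and 371 (18.3%, background 19.7%). All 4 libraries with AG120 lay above all 4 without it in 18 shore tiles (0.889%, background 1.45%) and below in 40 (1.98%, background 2.04%). Between the combination and AZA the counts were 238 higher (11.8%, background 14.8%) and 320 lower (15.8%, background 16.1%), and between the combination and AG120 211 (10.4%, background 12.6%) and 264 (13.04%, background 15.2%). For the average of AZA they were 17 (0.840%, background 0.819%) and 17 (0.840%, background 1.51%). Libraries often read different cytosines of a tile, and 1004 shore tiles (48.6%) had no position that all 8 libraries read. In 595 shore tiles at least 1 position had 5 or more reads in all 8. Of the 192 among them whose combination and Vehicle libraries did not overlap, 81 (42.2%) did so in the same direction at those shared positions. For AG120 against Vehicle this was 84 of 174 (48.3%) and for AZA against Vehicle 83 of 190 (43.7%). For the average of AG120 it was 1 of 19.

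None of the tiles named next passed edgeR's quasi-likelihood test, where each had an adjusted p of 1. They are, for each comparison with Vehicle and each drug average, the 2 tiles per direction with the smallest unadjusted p among those whose groups did not overlap. That gave 20 tiles, and 8 of them had no position read in all 8 libraries. With edgeR's likelihood ratio test 11 of the 20 passed an adjusted p of 0.05, the tiles at Ccdc125, Ntrk2, Aak1, Slc3a2, Pnrc1, LOC115486533, Gm8364, Rab34, Ip6k1, Tcf3 and Cxxc1. DESeq2 called the same 11 and those at Esyt1, Epb41l3, Dpf1 and Mllt6, 15 in all. The unadjusted p of edgeR's quasi-likelihood test ran from 0.00224 to 0.0747 over them. In the AG120 comparison the tile at Esyt1 (chr10:128524001-128525000), a tether of the endoplasmic reticulum, read 0.379% and 0% in Vehicle and 93.4% and 42.0% with AG120, and at most 0.557% in the other 4 libraries. At the 1 position read in all 8, AG120 had 94.7% and 32.2% (76 and 59 reads) and the other 6 libraries 0%, with 2 reads in combination replicate 2 and 91 to 186 in the other 5. The tile at Ccdc125 (chr13:100670001-100671000) read 27.7% and 52.5% in Vehicle and 0% and 0% with AG120 (0 of 410 and 0 of 1000 reads, which allows up to 0.732% and 0.300%). It read 14.4% and 12.2% with AZA and 31.9% and 25.5% with the combination, so both combination libraries lay near Vehicle. The tile held only 3 covered positions, and like levels could come from different cytosines. At 100670950 the AZA libraries had 155 of 524 and 0 of 488 reads methylated, at 100670973 they had 0 of 524 and 120 of 489. Combination replicate 2 had 327 of 640 and 0 of 640 there. A tile in Epb41l3, a gene of the membrane skeleton, read 64.3% and 13.7% in Vehicle and 100% and 99.9% with AG120, with AZA at 50.5% and 100%. A tile in Hnrnpf, a splicing factor gene, read 18.1% and 10.6% in Vehicle and 0% in both AG120 libraries. The AZA libraries were near 0 as well, at 0.0342% and 0.150%, while the combination libraries read 27.1% and 10.5%. Neither this tile nor that in Epb41l3 had a position that all 8 libraries read.

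With AZA the tile at Elovl6 (chr3:129532001-129533000), which encodes a fatty acid elongase, read 5.98% and 7.67% in Vehicle and 0% in the other 6 libraries (0 of 636 to 0 of 4415 reads summed over its cytosines, allowing up to 0.472% and 0.0680%). At 1 cytosine, 129532799, the Vehicle libraries had 96 of 360 and 156 of 459 reads methylated and the other 6 had 0. At no other cytosine of the tile did both Vehicle libraries have methylated reads. Vehicle replicates 1 and 2 read 6.11% and 0% at 129532816, 0% and 100% at 129532849, and 48.8% and 0% at 129532861. AG120 replicate 2 and combination replicate 2 had no reads at 129532849 and 129532861. A tile in Gse1 read 0% and 0% in Vehicle, 3.28% and 5.17% with AZA and 2.14% and 4.91% with AG120, while the combination libraries were at 0% and 0.0270%. A tile in Ntrk2 (chr13:58810001-58811000), the gene of the neurotrophin receptor TrkB, read 99.8% and 100% in Vehicle and 6.67% and 15.6% with AZA, but at its 2 shared positions the AZA libraries read 0% and 100%, over only 26 and 20 reads. The tile at Dpf1, a subunit gene of the BAF chromatin remodelling complex, read 74.0% and 22.8% with AZA and at most 1.44% in the other 6 libraries. It had no position that all 8 libraries read, and held only 23 reads in AG120 replicate 1 and 96 in combination replicate 2.

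With the combination, the tile near Aak1, a kinase gene of endocytosis, and 2610306M01Rik (chr6:86848001-86849000) read 100% and 100% against 17.1% and 0% in Vehicle, with 5.13% to 37.3% in the single-drug libraries. A tile in Slc3a2 (chr19:8714001-8715000), which encodes the heavy chain of the amino acid transporter CD98, read 96.2% and 100% against 4% and 0%, and at most 11.1% in the single-drug libraries. Neither tile had a position that all 8 libraries read. In the Slc3a2 tile combination replicate 2 read only 1 cytosine, and Vehicle replicate 1 held only 25 reads. The tile at Pnrc1 (chr4:33246001-33247000) read 77.1% and 60.1% against 100% and 100%, and its 4 shared positions read 75.0% and 60.1% against 100% and 100%. The tile at LOC115486533, within Rgma, read 0% and 0% against 15.1% and 11.2%, but at its shared positions Vehicle read 0% and 8.18%.

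Over the averages of each drug, 1 tile lay inside Rab34, a small GTPase gene, and near an end of Proca1 (chr11:78191001-78192000). It read 72.4% and 42.5% with the combination, 99.1% and 92.3% with AG120, and 99.8% to 100% in the other 4. The tile at Gm8364, within Zfp462, read 8.53% and 11.6% in Vehicle and 23.5% and 13.996% with AZA, whereas AG120 alone gave 0.181% and 0% and the combination 0.205% and 0%. Its 4 shared positions held only 11 and 16 Vehicle reads, too few to show levels of that size. The tile near Fam241b read 22.6% and 78.1% in Vehicle, 83.4% and 86.6% with AG120, 40.4% and 72.4% with AZA and 98.3% and 99.5% with the combination. It had no shared position, and held only 31 reads in Vehicle replicate 1 and 89 and 58 with AZA. A tile in Rest, which represses neuronal genes, read 99.4% to 100% in the libraries with AG120 and 90.7% to 99.1% in the others, with no shared position. Beyond Tcf3, which encodes the E proteins of lymphoid development, a second tile read 14.2%, 5.2%, 0% and 9.91% without AZA and 60.2%, 94.6%, 100% and 91.9% with it, with no shared position. The tile near Ip6k1 read 7.87% to 27.0% with AZA and at most 3.71% without, but its shared positions were at 0% in 7 libraries and 19.4% in AZA replicate 2. The tile near Cxxc1, whose protein binds unmethylated CpG, read 100% in the 4 libraries without AZA, 85.6% and 50% with AZA and 93.0% and 54.6% with the combination, where the shared positions stood at 100% and 100% over 298 and 26 reads. At Mllt6, a fusion partner of MLL, the libraries with AZA read at most 0.0562% and those without 0.259% to 9.36%, but at its 3 shared positions Vehicle read 0% and 0% (1667 and 1127 reads).

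**Figure D5:**
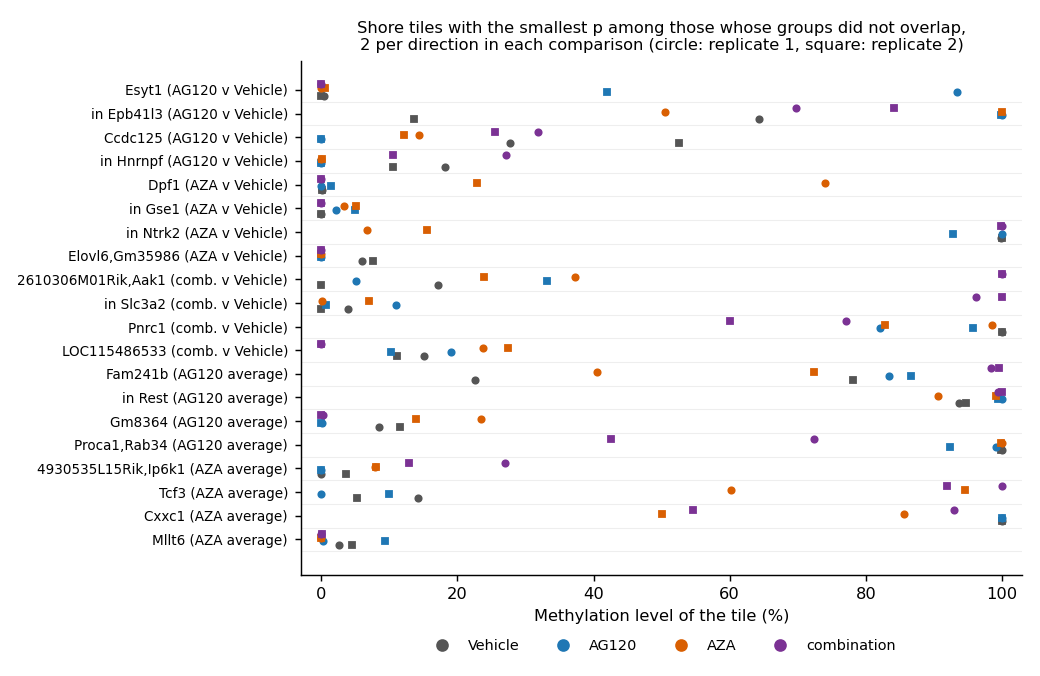
Levels of 20 shore tiles, the 2 per direction with the smallest unadjusted p among tiles whose groups did not overlap in each of 5 comparisons (x axis, percent; y axis, the tile's genes and the comparison that chose it). Each tile shows 8 points, coloured by group, with circles for replicate 1 and squares for replicate 2; the replicates of 1 group lie far apart in many tiles, such as 93.4% and 42.0% with AG120 at Esyt1.

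Gene lists were read for what stands beside their genes, and 0 of their shore tiles passed the test in any comparison (background 0%). Of 20 stem and progenitor genes, 5 had a shore tile (Hoxa9, Hoxa10, Mecom, Meis1 and Pbx3), with a median tile mean of 20.6%. The Meis1 tile (chr11:19018001-19019000), beside a homeobox gene of self-renewal, had no methylated read in any of the 8 libraries (297 to 2252 reads, allowing up to 1.01% and 0.133%). The Mecom tile read 33.7% and 37.1% in Vehicle, 0.0834% and 30.6% with AG120, 44.9% and 30.6% with AZA and 37.4% and 0.201% with the combination, so 1 library in each group with AG120 was near 0. Of 20 myeloid differentiation genes 0 had a shore tile, and Kit, Itgam, Idh1, Dnmt3a, Nras and Tet2 had none. Shores near Kit and Itgam, the genes of the sort, were thus not measured, and the sort was not checked here. Of the 21 genes of the methylation machinery and IDH, 4 had a tile (Gadd45a, Gadd45b, Tet1 and Tet3). The Tet1 tile, at a gene for an enzyme that oxidises methylcytosine, read 5.00% and 34.3% in Vehicle, 1.83% and 25.8% with AG120, 50.2% and 73.4% with AZA and 0.325% and 1.72% with the combination. At its 2 shared positions it read 0% in 7 libraries and 2.58% in AG120 replicate 2. The Gadd45a tile read 19.3% and 35.2% in Vehicle, 54.4% and 19.9% with AG120, 66.6% and 27.8% with AZA and 18.99% and 0.401% with the combination. Both combination libraries lay below both Vehicle libraries there, and the single-drug groups overlapped with Vehicle.

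Developmental transcription factors gave 13 tiles at 11 of 39 genes, of which 9 were under 20% and 0 over 80% (median of tile means 10.5%). The Barhl2 tile read 24.1% and 17.0% with AZA, 33.03% and 0% with the combination and at most 0.998% in Vehicle and with AG120. At its 3 shared positions the AZA libraries read 38.0% and 1.71% (963 and 351 reads) and the Vehicle libraries 0% and 1.04%. The Nkx2-5 tile, at a cardiac homeobox gene, read 24.004% and 32.6% in Vehicle, 56.3% and 0.245% with AG120, 12.3% and 13.8% with AZA and 23.3% and 16.0% with the combination. Of 25 tumour suppressors often methylated in cancer, Cdkn2a and Gata5 had a tile. The Cdkn2a tile (chr4:89293001-89294000), at a cell cycle inhibitor gene, read 100% in 6 libraries, 80.2% in AG120 replicate 1 and 55.3% in AZA replicate 2, beside a dense tile with a mean of 6.46%. The Gata5 tile read 10.2% to 74.3%. All 3 Polycomb tiles (Asxl1, Eed and Pcgf6) and all 4 cell cycle tiles (Ccnd1, Ccnd2, Ccne1 and Mcm5) were under 20%, with medians of 0.945% and 2.52%. All 3 tiles at imprinted genes (Grb10 and Zrsr1) were at 20 to 80%. The Zrsr1 tile read 9.09% and 67.9% in Vehicle, 87.9% and 85.4% with AG120, 82.5% and 96.6% with AZA and 87.4% and 96.4% with the combination. The 6 treated libraries lay above both Vehicle libraries, but its 4 shared positions held only 17 and 26 reads in Vehicle and 6 in combination replicate 1. The median difference of the 3 imprinted tiles in the combination was 30.99 points, and the combination lay above Vehicle without overlap in 2 of them (background 12.8%), as it did in 2 of the 3 tiles at genes of other blood lineages.

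RAS-MAPK genes gave 3 tiles, at Spry1 and Spry4, which restrain the pathway. The Spry1 tile (chr3:37641001-37642000) read 14.5% and 14.8% in Vehicle, 2.15% and 54.8% with AG120, 85.7% and 2.26% with AZA and 96.2% and 62.6% with the combination. The combination lay above Vehicle there without overlap, and no position was read in all 8 libraries. Genes of other cell types that a sort could leave also had few shores. Of 18 genes of other blood lineages Gata3 and Itga2b had 3 tiles (median of tile means 14.3%), of 12 stromal and endothelial genes Kdr and Nes had 2 (5.56%), and of 14 housekeeping genes Actb had 1 (5.07%). The Itga2b tile, at a megakaryocyte integrin gene, read 0% to 6.30%. The Gata3 tile read 56.8% and 5.87% in Vehicle, 0% and 9.07% with AG120, 0% and 0% with AZA and 0% and 42.7% with the combination, a spread within groups as wide as that between them.

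At the limits of the rule the levels passed smoothly except for the fewest positions. Tiles with 28 to 30 covered positions averaged 20.9% (n = 221) and those with 31 to 33, outside the rule, 17.8% (n = 272). Tiles whose flanked tile had 60 to 64 positions averaged 35.7% (n = 162) and those with 55 to 59, outside, 39.1% (n = 189). Tiles with 20 to 24 reads in the least-read library averaged 33.6% (n = 159) and those with 15 to 19, outside, 37.9% (n = 183). Tiles with 3 positions averaged 37.0% (n = 42) and those with 2, outside, 78.1% (n = 27).

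Replicates of a group were hardly more alike than other libraries. Across the shore tiles, Pearson's r between replicates was 0.812 to 0.875 in the 4 groups and 0.787 to 0.863 between libraries of different groups (24 pairs; given as a description, since tiles are not independent replicates). The median difference of a tile between replicates was 4.90 points in Vehicle, 5.73 with AG120, 5.66 with AZA and 3.6 with the combination. Between 18.3% and 23.9% of shore tiles differed by more than 20 points, against 3.66% to 8.37% of dense tiles and 25.0% to 30.7% of other sparse tiles.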

How the data were processed

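Methylation was measured by RRBS in 8 libraries of 4 groups. Per the file headers, the authors' table gives counts of methylated and of unmethylated reads for each library at 4006353 cytosine positions, without normalization. The submitters' processing notes name the mm10 build and, without roles, edgeR 3.32, R 4.0.2, Bismark 0.22.3, bcl2fastq 2.17.1.14, SAMtools 1.4.1 and Trim Galore 0.4.4. Whether duplicate reads were removed is not given in the sources used here. The treatment columns named Combo were taken as the group given both drugs.

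Counts were summed over the cytosines of tiles of 1000 bp, so 1 read counted at each cytosine it covered. Class means and shares were compared by exact permutation tests over libraries, with Benjamini-Hochberg adjustment over 10 tests of the drugs. Tiles on the autosomes and X shared 1 fit of all 8 libraries in edgeR 4.0.16 (R 4.3.3), whose design had 1 term for each library and 1 for the methylation of each group. The two-sided test was edgeR's quasi-likelihood F-test with robust estimation, with a threshold of 0.05 on the adjusted p, and the script was tested on simulated data. Alternatives were the likelihood ratio test, limma 3.58.1 (pseudocount 2), DESeq2 1.42.0, minima of 50 and 100 reads, other tile starts and limits, positions with at least 5 reads in all 8 libraries, and leaving out each library. Thinning to 20 reads used the exact hypergeometric expectation. A count of 0 allows a share of up to 3 counts of the total, which covers counting error only. Genes took RefSeq coordinates (GRCm38.p6); a tile was named for genes with an end within 2000 bp of its centre.

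Named tiles were, in each comparison with Vehicle and each drug average, those past the threshold, or else the 2 per direction with the smallest p whose groups did not overlap, and the 2 best-read tiles of each list. The members, lists and rules were chosen with earlier results of these data known. Replicate numbers were not taken to pair the libraries: deviations of same-numbered libraries correlated at -0.0150 to 0.0730. With the wide spread between replicates, correlations of this size cannot decide whether same-numbered libraries were paired. The comparisons by side of the gene start, the sets by level, single positions, the separation at shared positions and the distance profile were added after seeing the data.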

Additional observations from a re-analysis of the deposited data

Results flagged for a closer look

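The share of shore tiles at 20 to 80% moved in opposite directions with AZA depending on AG120. It was 20.9% and 21.6% in Vehicle and 21.8% and 23.1% with AZA. With AG120 alone it was 22.1% and 23.7%, against 22.0% and 20.03% in the combination. The AZA difference with AG120 minus that without it was -3.07 points. Every library moved the way of its group, but the difference itself was not tested.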

How the results depend on the processing

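The differences of shore tiles from dense tiles (19.8 to 20.1 points without 1 library), from other sparse tiles (-44.0 to -43.7) and of second from first tiles (33.5 to 34.1) kept direction and call under every alternative run. No drug difference of class means passed adjustment, which the smallest possible p allows only if several tests reach it together. The AG120 mean lay between 0.524 and 1.396 and the AZA mean between -0.907 and -0.00229 without 1 library. With each read counted once they were 6.73 (exact permutation p = 0.0286, not adjusted) and 1.43 (reversed). As a median over tiles they were -1.13 and -2.17, and the cause was not tested. With each read counted once, shores against dense tiles gave 3.05 for AG120 and 0.479 for AZA (reversed). Against other sparse tiles they gave 2.22 for AG120 (exact permutation p = 0.0286 for both AG120 values, not adjusted). The AZA difference of shores against other sparse tiles passed unadjusted with tiles 500 bp later (1.24), dense tiles of 80 positions (0.875) and shores of 5 to 20 positions (0.905), and ran from 0.418 to 0.873 without 1 library, passing only without AG120 replicate 1. Shores against dense tiles turned for AG120 at 100 reads (-0.273) and 5 to 20 positions (-0.0178), ranging from -0.305 to 0.306 without 1 library, and for AZA with tiles 500 bp later (0.0736; -0.738 to -0.127 without 1 library). The share at 20 to 80% turned for AZA at 50 reads (0.0512), 100 reads (0.598), tiles 500 bp later (0.152) and 5 to 20 positions (0.361), and for AG120 at dense tiles of 80 positions (-0.160) and 5 to 20 positions (-0.488). Without 1 library it ran from -0.488 to 0.722 for AG120 and from -0.818 to 0.214 for AZA. The share without a methylated read at 20 reads ran from 3.75 to 5.67 for AG120, passing unadjusted only without AG120 replicate 2, and from 2.51 to 4.69 for AZA.

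Shore tiles called rose from 0 with edgeR's quasi-likelihood test to 1, 1, 6, 18, 19, 18 and 6 with its likelihood ratio test and to 4, 7, 20, 33, 34, 24 and 15 with DESeq2, in the order AG120, AZA and combination against Vehicle, combination against AZA and against AG120, and the averages of AG120 and AZA. The shares lay near those over all tiles (shores 0.0494% to 1.68%, all tiles 0.0181% to 1.49%). Limma, a minimum of 50 reads and leaving out each library gave 0. With the replicate number as a block, a pairing the data did not settle, the AG120 mean difference was 1.01 (exact permutation p = 0.333) and 0 shore tiles were called. Depth limits shores to the 19.6% of candidate tiles that every library read at least 20 times.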
